A study of Mus musculus with 30 samples.

Results

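The 32 genes described here are expressed along the oligodendrocyte lineage, the cells that make central myelin. They were chosen by name, as known genes of precursors, of differentiating cells and of myelin, and not by a threshold on a measured value. They are 32 of the 49315 genes in the count table of 30 mouse hippocampi, and all 32 were among the 16486 genes that passed the filter on low counts. The hippocampi came from C57BL/6J mice of both sexes. TIMP2 KO mice (6 males and 7 females) carried the knockout of tissue inhibitor of metalloproteinases 2 in all cells, and WT mice (10 males and 7 females) carried the intact gene. The knockout is 1 line from the Jackson Laboratory, the study used littermate controls, each library came from 1 mouse, and the general methods give 2 adult age ranges without saying which applied to the sequenced mice. The comparison asks whether the loss of TIMP2 goes with another level of lineage transcripts in the hippocampus, and the 30 mice also show which of these transcripts vary together.

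Oligodendrocytes arise from dividing precursor cells that persist in the adult brain. A precursor that leaves the cell cycle passes through a short premyelinating stage, then switches on the genes of the myelin sheath and wraps axons. Sox10, Olig1 and Olig2 encode transcription factors used from precursor to mature cell, Myrf encodes a factor that turns on the myelin genes, and the sheath is built from a small number of abundant proteins and from lipids rich in galactose. In the hippocampus, myelin is found in the alveus, the fimbria and the perforant path, and more thinly among the cell layers.

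Between 18345517 and 41081083 reads per mouse were counted on genes. Timp2, the targeted gene, lay between 130 and 171 CPM, counts scaled to library size, in TIMP2 KO and between 256 and 380 CPM in WT mice, without overlap. In TIMP2 KO it stood at 50.1% of WT. Per the paper, no heterozygous mice were analysed, and the TIMP2 protein band was missing from hippocampal interstitial fluid of TIMP2 KO mice. The source of the remaining Timp2 counts was not tested. Over all genes tested, the median log2 fold change between genotypes was 0.00. In bulk tissue, fewer cells of the lineage and less RNA per cell cannot be told apart.

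Together the 32 genes took 0.373% of the counts, with summed levels from 2925 to 4751 CPM over the 30 mice. Mbp, which encodes myelin basic protein, made up 34.0% of that sum. Levels of different genes are compared here as CPM per kilobase of merged exons. On that scale Mbp was highest, at 150 ± 19.7 (SD, n = 30), above 98.8% of all genes tested. It was followed by Qdpr, which regenerates tetrahydrobiopterin, at 84.5 ± 6.63, and by Car2, which encodes carbonic anhydrase 2, at 69.6 ± 3.66. These means lay further apart than their SDs. Mobp (62.2 ± 12.1), Mal (60.8 ± 10.9), Plekhb1 (59.5 ± 4.62), Cnp (57.9 ± 6.85) and Olig1 (56.6 ± 3.65) came next, and within this group neighbouring genes differed by less than 1 SD.

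The genes of precursors stood low in the same ranking. Pdgfra, the receptor for platelet-derived growth factor that precursors use to divide, was at 6.20 ± 0.395 CPM per kilobase (SD, n = 30), 25th of the 32. Cspg4, the NG2 proteoglycan of the precursor surface, was at 1.12 ± 0.145, 31st of the 32. Enpp6, a choline phosphodiesterase of newly forming oligodendrocytes, was the lowest, at 0.894 ± 0.139. The defining markers of the lineage were thus present in every mouse, from Pdgfra at 54.2 to 71.1 CPM to Mbp at 942 to 1690 CPM. Of 5 marker genes of Schwann cells, which make peripheral myelin, Prx (19 to 63 counts per mouse), Ncmap (4 to 25) and Egr2 (6 to 205) passed the filter on low counts, and the others, Pmp2 among them, had at most 3 counts in any mouse. The summed level of these 5 markers ran from 2.4 to 10.0 CPM. Egr2 had the highest mean of them, 2.45 CPM, ahead of Prx at 1.55 CPM. Sox10, which was also on the Schwann cell list, is 1 of the 32 genes and was left out of the 5.

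Comparing TIMP2 KO with WT hippocampi, the myelin genes differed little. By edgeR's quasi-likelihood test, 2 of the 32 genes had an unadjusted p under 0.05, Cryab and Aspa, both higher in TIMP2 KO. Over all genes tested, 5.03% passed that threshold in either direction and 2.47% passed it as higher in TIMP2 KO. The 2 genes are 6.25% of the 32. The count depended on the fit: with sex as a covariate 4 genes passed (12.5%, against 5.62% of all genes), with no filter on low counts 4 (12.5%, against 5.87%), and when 1 mouse was left out 1 to 7, where 4.26% to 5.8% of all genes passed. Whether the share of members differs from that of all genes was not tested. After Benjamini-Hochberg adjustment over all genes tested none of the 32 passed, with a smallest adjusted p of 0.928, against 0.0546% of all genes. DESeq2 gave the same counts, 2 and 0. The fold changes were above 0 for 29 of the 32 genes, with a median of 0.07 on the log2 scale, where 50.2% of all genes tested were above 0. They ranged from -0.08 for Gpr17 to 0.12 for Fa2h, and the 95% intervals of the 32 genes lay between -0.22 and 0.28. These genes share mice and cells, and their fold changes are not independent.

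**Figure D1:**
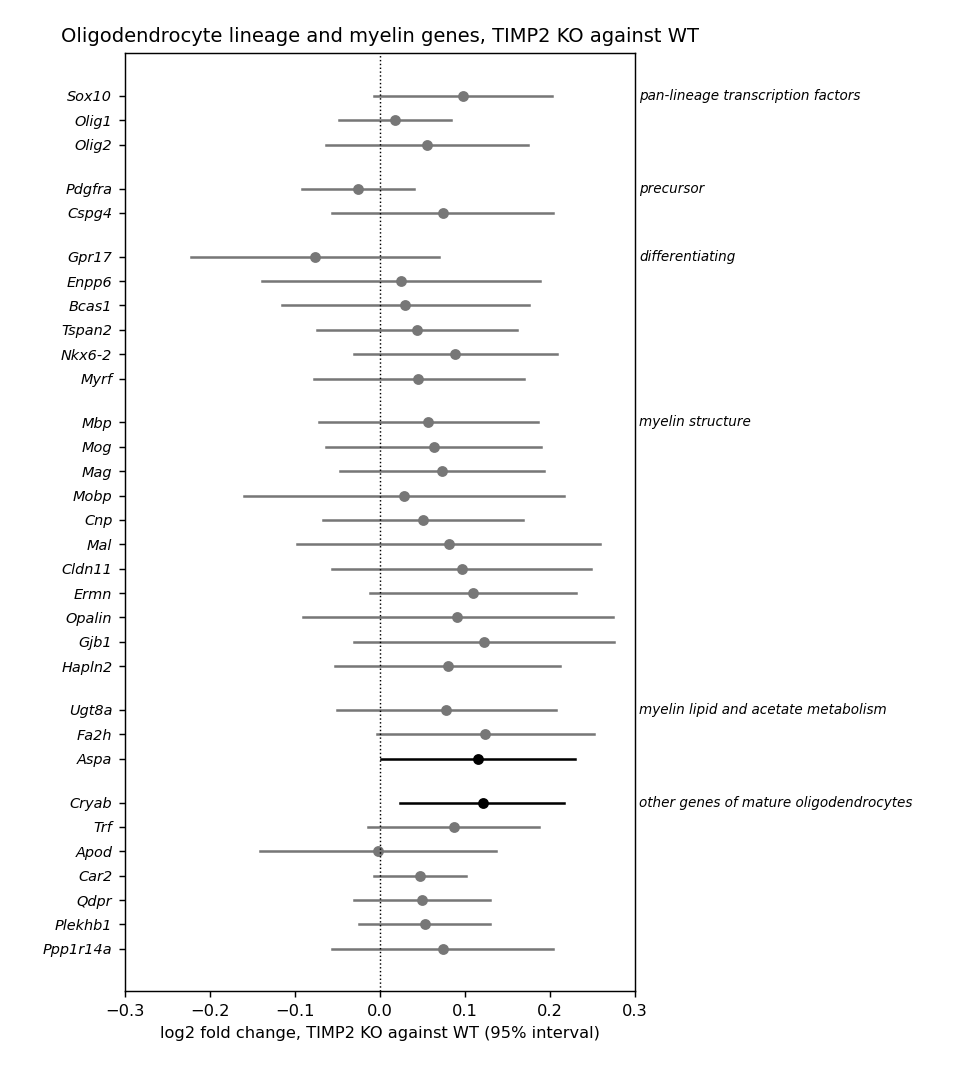
Log2 fold changes between TIMP2 KO (n = 13) and WT mice (n = 17) for the 32 genes, grouped by role, with 95% intervals from edgeR's quasi-likelihood fit. Most points lie between 0 and 0.12, and the intervals of Cryab and Aspa, in black, do not include 0.

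Among the 11 genes of myelin structure, all 11 fold changes were above 0, with a median of 0.08, and none passed the test (that of Mobp fell below 0 when single mice were left out). Mbp, which compacts the sheath, lay between 942 and 1490 CPM in WT mice with a median of 1240, and between 1020 and 1690 CPM in TIMP2 KO mice with a median of 1270. The range of TIMP2 KO mice covered most of that of WT mice. Its log2 fold change was 0.06 (SE 0.06, p = 0.378). Mog, an outer-surface protein of the sheath, ran from 27.8 to 42.2 CPM in WT (median 35.9) and from 26.5 to 45.9 CPM in TIMP2 KO mice (median 39.0), with a log2 fold change of 0.06 (SE 0.06, p = 0.318). Mag, the adhesion protein that faces the axon, ran from 71.2 to 109 CPM in WT and from 70.4 to 115 CPM in TIMP2 KO mice. The highest and the lowest mouse for both genes were TIMP2 KO mice.

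Cnp, the phosphodiesterase that keeps cytoplasmic channels open in myelin, was at 208 ± 25.7 CPM in WT (SD, n = 17) and 215 ± 24.2 CPM in TIMP2 KO mice (SD, n = 13). Mobp, another small basic protein of the sheath, was at 423 ± 91.1 and 431 ± 74.0 CPM. Its difference was the smallest of the group, 0.03 on the log2 scale with an interval from -0.16 to 0.22. Cldn11, which seals the sheath with tight junctions, had a log2 fold change of 0.10 (SE 0.08), and Mal, a proteolipid of myelin membranes, one of 0.08 (SE 0.09). Ermn, a cytoskeletal protein of mature oligodendrocytes, ran from 40.6 to 65.1 CPM in WT (median 52.7) and from 49.5 to 74.4 CPM in TIMP2 KO mice (median 58.2). Its log2 fold change of 0.11 (SE 0.06, p = 0.0769) did not pass. Gjb1, the gap junction protein connexin 32, had the largest fold change of the group, 0.12 with an interval from -0.03 to 0.28.

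In the group of lipid and acetate metabolism, Aspa passed the unadjusted threshold. It encodes aspartoacylase, which frees acetate from N-acetylaspartate in oligodendrocytes. WT mice lay between 9.34 and 13.4 CPM with a median of 11.4, and TIMP2 KO mice between 9.21 and 14.1 CPM with a median of 12.4. Although the ranges overlapped almost fully, 10 of the 13 TIMP2 KO mice were above the WT median. The log2 fold change was 0.12 (SE 0.06, p = 0.0486, adjusted p = 0.98 by edgeR with Benjamini-Hochberg adjustment). In 30 fits that each left out 1 mouse, Aspa passed in 11 and its fold change lay between 0.10 and 0.15. Fa2h, which adds the hydroxyl group to the fatty acids of myelin galactolipids, was at 21.9 ± 2.84 CPM in WT (SD, n = 17) and 23.8 ± 2.99 CPM in TIMP2 KO mice (SD, n = 13), with p = 0.0566. Ugt8a, the galactosyltransferase that makes galactosylceramide, had a log2 fold change of 0.08 (SE 0.06).

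Cryab, the small heat shock protein αB-crystallin that mature oligodendrocytes and astrocytes hold, was the member with the smallest p. It ran from 41.0 to 60.4 CPM in WT (median 50.9) and from 47.1 to 62.2 CPM in TIMP2 KO mice (median 54.0). The upper ends were alike and the lowest WT mice lay below every TIMP2 KO mouse, and 11 of the 13 TIMP2 KO mice were above the WT median. The log2 fold change was 0.12 (SE 0.05, p = 0.0156, adjusted p = 0.928 by edgeR with Benjamini-Hochberg adjustment). Cryab passed the unadjusted threshold in all 30 fits that left out 1 mouse, with fold changes from 0.10 to 0.14. Without strand information in the counting notes, reads of Hspb2, which shares 17% of the exon bases of Cryab on the opposite strand, cannot be separated, but Hspb2 had at most 18 counts in any mouse. Trf (transferrin, 0.09, SE 0.05) and Car2 (0.05, SE 0.03) did not pass. Apod, a lipid carrier, was at 87.6 ± 13.7 CPM in WT (SD, n = 17) and 87.3 ± 10.8 CPM in TIMP2 KO mice (SD, n = 13), a log2 fold change of 0.00 with an interval from -0.14 to 0.14. Trf shares 63.5% of its exon bases with Gm20425, a predicted gene on the same strand with at most 4 counts in any mouse, and its own counts are therefore uncertain.

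**Figure D2:**
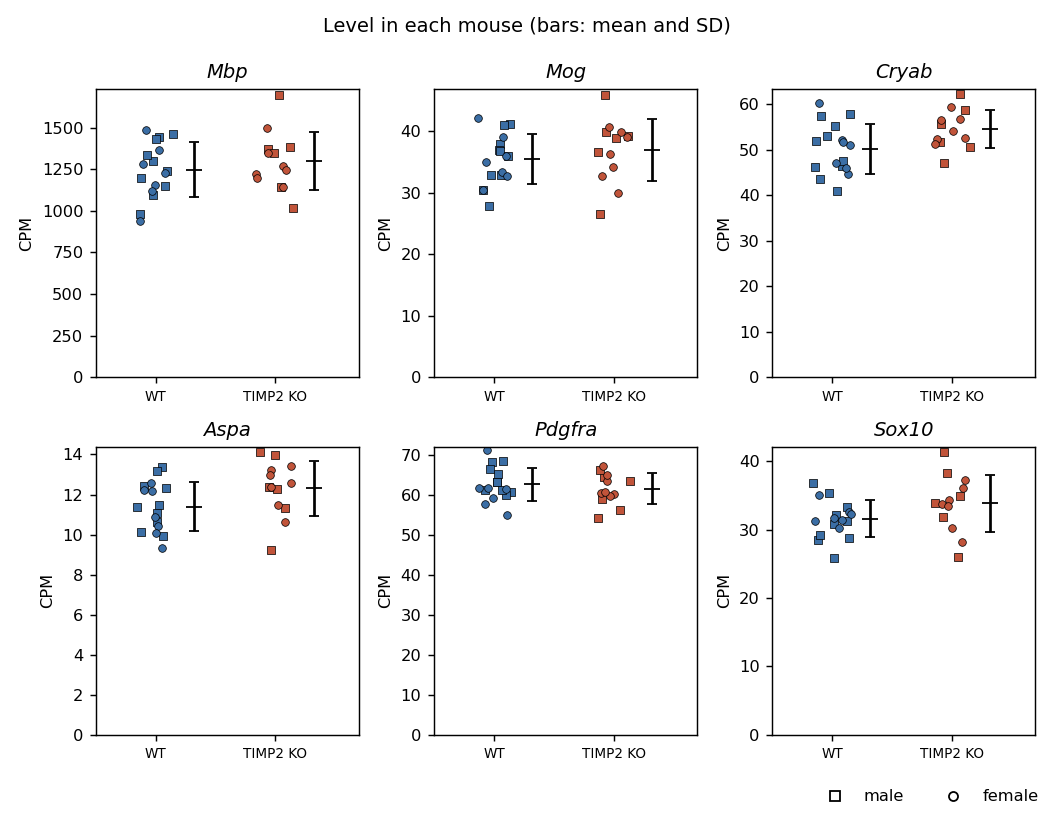
Level in CPM of 6 genes in each of 17 WT and 13 TIMP2 KO mice, squares for males and circles for females, with the mean and SD of each genotype. The genotypes overlap in all 6 panels; the Cryab medians are 50.9 and 54.0 CPM and the Pdgfra medians 61.5 and 60.6 CPM.

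The genes of precursors and of differentiating cells did not pass the test in either direction. Pdgfra lay between 54.8 and 71.1 CPM in WT (median 61.5) and between 54.2 and 67.1 CPM in TIMP2 KO mice (median 60.6). The 2 ranges were nearly the same, and the log2 fold change was -0.03 (SE 0.03) with an interval from -0.09 to 0.04. Cspg4 had a log2 fold change of 0.07 (SE 0.06). Gpr17, a receptor of the premyelinating stage, was at 41.9 ± 5.13 CPM in WT (SD, n = 17) and 39.8 ± 6.69 CPM in TIMP2 KO mice (SD, n = 13). The other genes of differentiation had fold changes between 0.03 for Enpp6 and 0.09 for Nkx6-2, a homeobox factor. Of the exon bases of Nkx6-2, 12.9% are shared with Inpp5a on the opposite strand. Tspan2, a tetraspanin of early myelin, Bcas1, a marker of newly myelinating cells, and Myrf each had a log2 fold change under 0.05. Of the pan-lineage factors, Sox10 ran from 25.8 to 36.8 CPM in WT (median 31.3) and from 25.9 to 41.3 CPM in TIMP2 KO mice (median 33.9), with a log2 fold change of 0.10 (SE 0.05, p = 0.0665). Olig1 and Olig2 had fold changes of 0.02 and 0.06.

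A further list of 48 lineage genes was examined in the same fit. Of these, 34 had fold changes above 0 and the median was 0.04. Tmem125, a membrane protein gene expressed in oligodendrocytes, was the 1 gene with an unadjusted p under 0.05 (2.08% of the 48, against 5.03% of all genes tested). It averaged 5.37 CPM in TIMP2 KO and 4.75 CPM in WT mice (log2 fold change 0.18, SE 0.08, p = 0.0187 by edgeR). None of the 48 passed after adjustment. Small p-values also belonged to Cd9, a tetraspanin (0.07, p = 0.0554), Jam3, an adhesion molecule (0.08, p = 0.0623), and Gltp, a glycolipid transfer protein (0.06, p = 0.0989).

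Markers of other cell types and regions were examined beside these values. Among 10 microglial and 8 endothelial markers, 0 and 1 had an unadjusted p under 0.05 between genotypes by edgeR, against 5.03% of all genes tested. Of the astrocyte, neuron, neocortex and CA3 pyramidal cell lists, 1 gene each passed. For Schwann cells, meningeal fibroblasts, thalamus and habenula, striatum and CA1 pyramidal cells, 0 passed. Of the 6 markers of dentate gyrus granule cells, 4 passed, with a median log2 fold change of -0.15. Their summed level ran from 470 to 715 CPM in WT and from 420 to 561 CPM in TIMP2 KO mice. Of the 9 choroid plexus markers, 5 could be tested and 4 of these passed. The summed levels ran from 125 to 178 CPM in WT and from 131 to 1140 CPM in TIMP2 KO mice. Among males of both genotypes the highest sum was 277 CPM. Ttr ran from 8 to 26400 counts per mouse. Folr1, Aqp1, Kcnj13 and Otx2, which could not be tested, were at 0 counts in at least 1 mouse and reached 141, 174, 167 and 85 counts. The part of these tissues in the values of the myelin genes was not tested.

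Comparing females with males in a fit with genotype as a second term, 3 of the 32 genes had an unadjusted p under 0.05, against 9.77% of all genes tested (the 3 are 9.38% of the 32). None passed after adjustment, where 0.218% of all genes did. Gpr17 was higher in females. In males it lay between 24.3 and 45.6 CPM with a median of 39.3, and in females between 35.8 and 52.2 CPM with a median of 42.9. The ranges overlapped, with 13 of the 14 females above the male median. The log2 fold change was 0.24 (SE 0.06, p = 0.00032, adjusted p = 0.0893 by edgeR with Benjamini-Hochberg adjustment), and in DESeq2 the adjusted p was 0.0227. Gpr17 passed the unadjusted threshold in all 30 fits that left out 1 mouse, with fold changes from 0.20 to 0.27. It shares 3.6% of its exon bases with Lims2 on the opposite strand.

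Ugt8a and Hapln2 were lower in females. Ugt8a ran from 33.1 to 47.1 CPM in males (median 39.8) and from 25.9 to 43.3 CPM in females (median 36.1), and 10 of the 14 females were below the male median. Its log2 fold change was -0.15 (SE 0.06, p = 0.0199, adjusted p = 0.412 by the same test). It passed in 29 of the 30 fits that left out 1 mouse and missed the threshold without mouse 9, a WT female (p = 0.0502). Hapln2, a link protein of the matrix at nodes of Ranvier, ran from 10.5 to 16.1 CPM in males (median 11.9) and from 8.99 to 14.4 CPM in females (median 11.3). Its log2 fold change was -0.13 (SE 0.06, p = 0.0497), and it passed in 12 of the 30 fits. Among the 48 further lineage genes, 5 had an unadjusted p under 0.05 between the sexes (10.42%, against 9.77% of all genes tested). Gsn, Ndrg1 and Jam3 were lower and Tmem98 and Sox8 higher in females. These 5 were named after their values were seen.

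**Figure D3:**
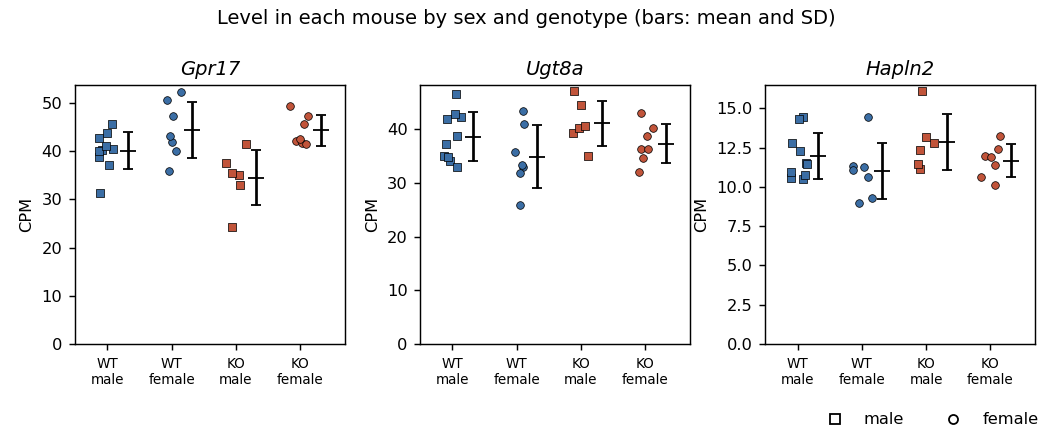
Level in CPM of Gpr17, Ugt8a and Hapln2 in each mouse by genotype and sex (10 WT males, 7 WT females, 6 TIMP2 KO males, 7 TIMP2 KO females), with the mean and SD of each group. The lowest Gpr17 value, 24.3 CPM, belongs to a TIMP2 KO male, and the 7 TIMP2 KO females lie between 41.4 and 49.3 CPM.

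The interaction of sex and genotype, which tests whether the difference between genotypes was the same in males and females, had an unadjusted p under 0.05 for none of the 32 genes in edgeR and for none in DESeq2, against 2.57% of all genes tested in edgeR. The smallest p was that of Gpr17 (interaction 0.21 on the log2 scale, 95% interval -0.03 to 0.45, p = 0.0844). Gpr17 averaged 40.1 CPM in WT males, 34.5 in TIMP2 KO males, 44.4 in WT females and 44.3 in TIMP2 KO females. Within males alone its log2 fold change between genotypes was -0.21 (p = 0.0169), and within females alone it was 0.00 (p = 0.945). The test of the difference between these values is the interaction above, and it did not pass. For Aspa the difference was 0.17 within females and 0.07 within males, and for Cryab it was 0.12 in each.

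The 32 genes varied between mice more than most genes did. Within sex and genotype, the SD of log2 CPM had a median of 0.18 over the 32 genes, against 0.12 over all genes tested and 0.085 over the 9985 genes with a mean of at least 10 CPM. Mobp (SD 0.29), Opalin, a membrane glycoprotein of myelin (0.28), and Mal (0.28) varied most. Their highest mouse stood 2.24-fold, 2.49-fold and 2.14-fold above the lowest. Car2 varied least of the 32, with an SD of 0.07, and Pdgfra (0.09) and Olig1 (0.09) were also steady. Most of the myelin genes ranked the mice alike, and Opalin, Gjb1 and Hapln2 did so less. The mean log2 CPM of the 11 genes of myelin structure, called the myelin mean below, ran from 5.88 to 6.51 in WT and from 5.90 to 6.63 in TIMP2 KO mice, a 1.69-fold range over all 30. The 3 lowest mice were mouse 2, a WT male, mouse 9, a WT female, and mouse 10, a TIMP2 KO male. The highest was mouse 18, a TIMP2 KO male.

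Pearson's r of log2 CPM across the 30 mice describes which genes moved together. The mice are the points, and all values of a mouse share 1 library and 1 dissection. Over 496 pairs among the 32 genes the median r was 0.58, and 301 pairs had an r of at least 0.5. Over pairs of 1649 genes taken at regular steps through the table, the median r was 0.00 and the central 95% of pairs lay between -0.43 and 0.44. The 1649 genes were not matched to the 32 in level. A mean of at least 10 CPM was reached by 28 of the 32 genes and by 9985 of the 16486 genes tested. The 55 pairs among the genes of myelin structure had a median r of 0.79, all 55 were above 0, and 15 reached 0.9. The closest pair was Mal with Cldn11 (r = 0.97), followed by Mobp with Mbp and with Mal (both 0.96). Removing the mean of each sex and genotype left the group's median at 0.81.

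**Figure D4:**
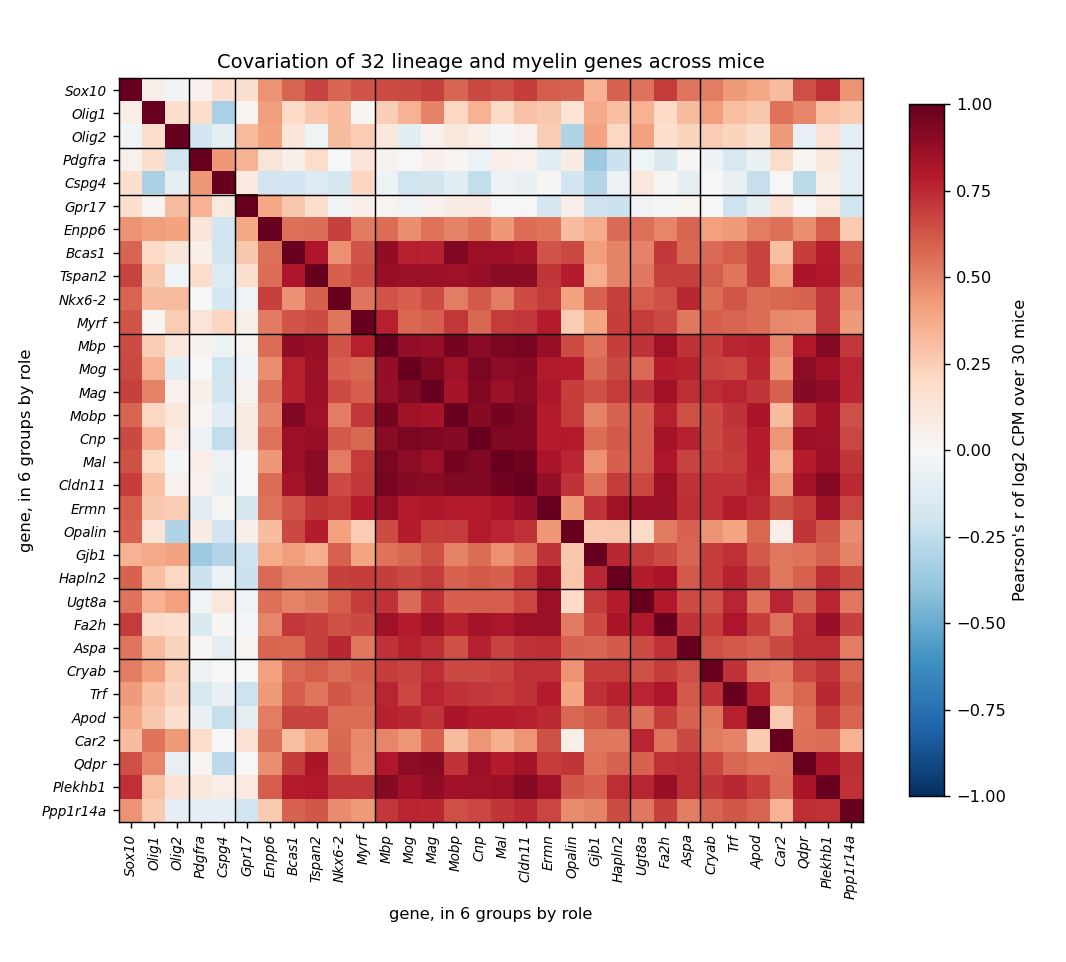
Pearson's r of log2 CPM over 30 mice for each pair of the 32 genes, from blue (-1) through white (0) to red (1), with lines between the 6 groups by role. Pdgfra, Cspg4, Gpr17 and Olig2 form pale bands (r with the myelin mean from -0.15 to 0.07), while Mbp to Ermn form a dark block.

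Each gene was then set against the myelin mean, leaving the gene itself out of it. Cldn11 (r = 0.97), Cnp (0.95), Mbp (0.95), Mal (0.94) and Mog (0.94) followed it most closely. Outside the group, Plekhb1 (0.91), Tspan2 (0.88), Fa2h (0.88), Qdpr (0.86) and Bcas1 (0.84) followed it nearly as well. Sox10 (0.69) and Myrf (0.69) were intermediate, and Car2 (0.48) was loosely tied. Olig1 (0.32), Olig2 (0.07), Pdgfra (-0.04), Gpr17 (-0.03) and Cspg4 (-0.15) were not. In the 3 mice with the lowest myelin mean Pdgfra was at 5.81 to 5.94 log2 CPM, and in the mouse with the highest it was at 6.01. Without the 2 mice farthest from the median myelin mean, the r of Cldn11 was 0.95 and that of Pdgfra -0.09. Within TIMP2 KO mice the r of Cldn11 was 0.97 and within WT mice 0.96, and for Pdgfra these were 0.29 and -0.21.

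A total of 6 pairs were tested by a permutation test with 100000 resamples, 2-sided, with values adjusted over the 6. Mbp with Mog had r = 0.88 and Spearman's rho = 0.88, and Mbp with Mag r = 0.87 and rho = 0.82. Mbp with Apod had r = 0.77 and rho = 0.76. For these 3 pairs the permutation p was 1e-05 for both measures, the smallest the resamples can give, with adjusted values of 1.5e-05 for r and 2e-05 for rho. Mog with Opalin had r = 0.78 (permutation p = 1e-05, adjusted 1.5e-05) and rho = 0.76 (permutation p = 2e-05, adjusted 3e-05). Pdgfra with Cspg4 had r = 0.43 (permutation p = 0.016, adjusted 0.0192) and rho = 0.39 (permutation p = 0.0339, adjusted 0.0407). Mbp with Pdgfra had r = 0.04 (permutation p = 0.845, adjusted 0.845) and rho = -0.01 (permutation p = 0.968, adjusted 0.968). Without the 2 mice farthest from the median of the first gene of a pair, r was 0.86, 0.84 and 0.71 for Mbp with Mog, Mag and Apod, 0.65 for Mog with Opalin, 0.39 for Pdgfra with Cspg4 and -0.03 for Mbp with Pdgfra. The pairs kept their signs within TIMP2 KO and within WT mice except Mbp with Pdgfra, at 0.39 and -0.17.

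**Figure D5:**
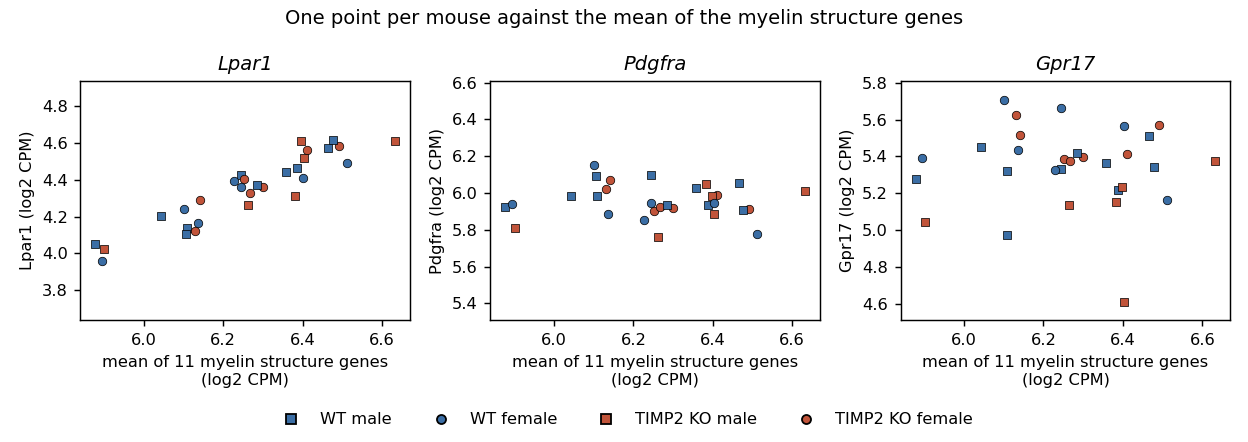
Lpar1, Pdgfra and Gpr17 in log2 CPM against the mean log2 CPM of the 11 genes of myelin structure, 1 point per mouse, colours for genotype, squares for males and circles for females, with axes of equal height. Lpar1 climbs with the myelin mean (r = 0.93), while Pdgfra (-0.04) and Gpr17 (-0.03) stay level.

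Within myelin structure the genes did not form 1 even block. Opalin followed Cnp (r = 0.79), Mog (0.78) and, outside the group, Tspan2 (0.79), but Ermn less (0.43), Hapln2 (0.28) and Gjb1 (0.27). Ermn, by contrast, followed Hapln2 (0.84), Ugt8a (0.86) and Fa2h (0.87), and Ugt8a with Opalin had an r of 0.20. Hapln2, Gjb1, Ugt8a and Ermn thus had a higher r with each other than with Opalin. They were not a separate block, since Ermn also followed Cldn11 (0.88) and Mbp (0.87). Opalin had an r of 0.72 and 0.65 with the same genes. These pairs were picked after their values were seen and are a description. When the myelin mean was added as a term to the comparison of females with males, 6 of the 32 genes (18.8%) had an unadjusted p under 0.05, against 10.1% of all genes tested in that fit. Ermn (-0.07), Hapln2 (-0.11) and Ugt8a (-0.12) were lower in females relative to the myelin mean, and Opalin (0.14), Cnp (0.04) and Gpr17 (0.24) were higher. None passed after adjustment in edgeR. Ermn, Hapln2, Opalin and Cnp are themselves part of the myelin mean, so fold changes on both sides of 0 are forced among its genes. This fit therefore gives no separate support to the pairs above. The myelin mean is made of 11 of the 32 genes and is correlated with most of the others, so adding it centres their fold changes near 0 by construction. With this term in the comparison of genotypes the median fold change of the 32 genes was 0.01, 20 of the 32 were above 0, Cryab was at 0.08 (p = 0.0247), Mobp was at -0.07 (p = 0.0465) and Aspa was at 0.06 (p = 0.158).

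Promoter sequence is shown for members on either side of this pattern. RefSeq promoter entries on GRCm38.p6 were found for 22 of the 32 genes, 29 entries in all. The 250 bases before each start were searched on both strands for letters known to be bound by SOX proteins (ACAAAG or ACAATG) and by MYRF (CTGGCAC or CTGGTAC) and for the E-box CAGCTG that OLIG2 can bind. SOX letters were in 14 of the 29 windows (48.3%), against 25.2% of 32851 windows of the same length from all genes. MYRF letters were in 5 windows (17.2%, against 5.9%), and the E-box in 2 (6.9%, against 13%). By gene, SOX letters were in 12 of the 22 (54.5%, against 28.2% of all genes) and MYRF letters in 4 (18.2%, against 6.8%). The E-box was in 2 of the 22 genes (9.1%, against 14.7%). No SOX match overlapped a MYRF match. For 21 of the 29 entries, the first 20 transcribed bases were found in a GENCODE transcript of the gene. Some windows lie wholly inside the gene's own GENCODE model, among them windows with SOX letters of Gjb1, Plekhb1 and Tspan2. Windows of 1 gene overlap where starts lie close together, as for Mag, and matches to so few letters arise in many promoters. The 5 windows below hold no base of the gene's own GENCODE model. Mog, Opalin and Ermn are shown since each holds a match, Cldn11 since it followed the myelin mean most closely and holds none, and Pdgfra as the precursor gene that did not follow it. Capitals mark SOX and MYRF letters on either strand, each line reads 5′ to 3′ on the gene's strand, and the last base lies just before the start.
Mog, chr17:37023399-37023648, minus strand: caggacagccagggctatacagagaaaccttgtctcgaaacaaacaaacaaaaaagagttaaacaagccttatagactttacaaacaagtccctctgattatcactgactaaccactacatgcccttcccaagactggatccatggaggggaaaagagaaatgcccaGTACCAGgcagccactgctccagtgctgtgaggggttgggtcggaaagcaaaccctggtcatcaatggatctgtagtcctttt
Opalin, chr19:41077114-41077363, minus strand: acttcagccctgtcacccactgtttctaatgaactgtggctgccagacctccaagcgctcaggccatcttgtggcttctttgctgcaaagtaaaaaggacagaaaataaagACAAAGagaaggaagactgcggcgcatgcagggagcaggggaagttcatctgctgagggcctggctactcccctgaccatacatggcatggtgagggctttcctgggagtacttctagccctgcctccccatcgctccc
Ermn, chr2:58052865-58053114, minus strand: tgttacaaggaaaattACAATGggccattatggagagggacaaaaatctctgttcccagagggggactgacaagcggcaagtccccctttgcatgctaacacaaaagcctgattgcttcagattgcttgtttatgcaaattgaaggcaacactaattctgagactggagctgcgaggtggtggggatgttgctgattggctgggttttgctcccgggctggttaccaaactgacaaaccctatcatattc
Cldn11, chr3:31149670-31149919, plus strand: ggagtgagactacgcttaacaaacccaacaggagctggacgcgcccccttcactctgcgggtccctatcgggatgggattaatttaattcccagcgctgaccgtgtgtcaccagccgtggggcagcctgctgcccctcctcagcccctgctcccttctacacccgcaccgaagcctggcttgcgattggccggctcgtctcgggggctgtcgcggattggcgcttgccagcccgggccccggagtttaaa
Pdgfra, chr5:75152001-75152250, plus strand: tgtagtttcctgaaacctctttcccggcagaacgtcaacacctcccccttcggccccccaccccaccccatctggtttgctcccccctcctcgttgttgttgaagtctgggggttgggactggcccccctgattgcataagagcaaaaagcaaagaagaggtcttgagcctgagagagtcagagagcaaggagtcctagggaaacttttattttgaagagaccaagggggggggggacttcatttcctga
Mog holds 1 MYRF match, 83 bases before its start and on the opposite strand. Opalin and Ermn hold 1 SOX match each, 139 and 234 bases before the start. Neither Cldn11 nor Pdgfra holds any of these letters in this window. The matches do not divide the genes by how closely they followed the myelin mean, since Mal (r = 0.94) also holds none, while Olig2 (r = 0.07) holds a SOX match. That match lies 68 bases before the RefSeq start of Olig2. The last 93 bases of its window are inside the GENCODE model of Olig2, so the match is within that model.

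Outside the 32, 14362 genes with a mean of at least 1 CPM were ranked by their r with the myelin mean. The median r was 0.01, 24 genes reached 0.8 and 7 reached 0.9. Among the highest were Galnt6, which starts mucin-type sugar chains (r = 0.93, rho = 0.90), Lpar1, a lysophosphatidic acid receptor (0.93), Evi2a (0.91), Gatm, which makes guanidinoacetate for creatine (0.91), Sept4, a septin (0.91), and Tmem88b (0.90). Gjc3, a connexin of glia (0.89), Gltp (0.88) and Rhog, a small GTPase (0.88), followed. Lpar1, Evi2a, Tmem88b, Gjc3 and Gltp were on the further lineage list. The genes named here had log2 fold changes between genotypes from 0.04 to 0.09, and none had an unadjusted p under 0.05. Galnt6 lies on chromosome 15 from 100691813 to 100729376 on GRCm38 and Lpar1 on chromosome 4 from 58435255 to 58553898.

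On the further lineage list, 11 genes are used as markers of precursors or of cells leaving that stage. Their r with the myelin mean had a median of -0.09 and ran from -0.16 to 0.21. It was below 0 for Matn4, Lhfpl3, Pcdh15, Cacng4, C1ql1, Tnr and Sox6 and above 0 for Neu4, Ptprz1, Vcan and Bmp4. Gal3st1, the sulfotransferase of sulfatide synthesis (0.33), Nkx2-2, a homeobox factor (0.07), Tcf7l2, a transcription factor of differentiating cells (0.02), and Klk6, a kallikrein (-0.10), did not follow it closely. These genes were named after their values were seen. S1pr5, a sphingosine 1-phosphate receptor of mature oligodendrocytes (0.88), and Prr18 (0.86) did.

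Of the marker lists of other cells, the endothelial list had the highest r with the myelin mean (0.47, and 0.44 without the 2 outermost mice), followed by microglia (0.40, and 0.17 without them), choroid plexus (0.32), and astrocytes (0.29). Enpp2, which oligodendrocytes also express, had the highest r of the choroid plexus genes (0.54). Neurons (0.11), CA1 (0.14) and CA3 pyramidal cells (0.19), dentate gyrus granule cells (0.08), neocortex (0.10), thalamus and habenula (-0.05), striatum (-0.02), meningeal fibroblasts (-0.07) and Schwann cells (0.11) had lower values. The total count of a mouse had an r of 0.09 with its myelin mean. How much white matter each dissection held was not measured, and its part in the spread of the myelin genes was not tested.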

How the data were processed

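Hippocampal RNA of 30 mice was read from paired-end poly(A) libraries. With GRCm38 as the reference, the authors deposited raw counts per gene without normalization. Per the submitters' processing notes the tools were Trimmomatic 0.36, STAR 2.5.2b and featureCounts of Subread 1.5.2. The strand setting and the annotation release are not given in the sources used here. Symbols, positions and exon lengths came from GENCODE M21. With edgeR 4.0.16 (R 4.3.3), libraries were scaled by TMM, 16486 genes were kept by filterByExpr, and genotypes were compared by its quasi-likelihood test with both sexes pooled. P-values were adjusted over those genes by the Benjamini-Hochberg method. Log2 CPM used a prior count of 2, and levels are CPM scaled by TMM factors. Correlations were computed in Python 3.11.15 with scipy 1.17.1.

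The members and lists were chosen with earlier results of these data known. The named genes are the 32 members, Timp2, up to 5 further lineage genes with the smallest p and up to 10 genes with the highest r with the myelin mean, and some of these are not reported here. The alternatives were DESeq2 1.42.0, RLE factors, a filter of at least 10 counts in every mouse or none, and sex or log2 total counts as a covariate. Leaving out each mouse, the myelin mean as a covariate, and the percentile of spread among abundant genes were added after the data were seen. The test was tried on simulated counts. P-values measure the spread between mice, and the common biological coefficient of variation was 7.5%. Harvest batches are not in the labels and could not be fitted. For its network analysis the paper adjusted expression for the date of isolation or harvest, which it gives as a significant source of variation. The fits and correlations here carry no such adjustment.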

Additional observations from a re-analysis of the deposited data

Results flagged for a closer look

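In each sex and genotype, the highest and the lowest mouse were compared with the others for each of the 32 genes. Of 128 groups examined, 4 held a mouse far from the rest, where chance gives about 6.4. Among TIMP2 KO females, mouse 11 had an Olig1 level of 7.05 log2 CPM, above the other 6 at 6.90 to 6.96. Among TIMP2 KO males, mouse 10 had an Opalin level of 3.42, below the other 5 at 4.19 to 4.50, and it was also among the 3 mice with the lowest myelin mean. Among WT females, mouse 4 had an Opalin level of 4.73, above the other 6 at 4.01 to 4.32. Among TIMP2 KO females, mouse 30 had a Car2 level of 7.28, below the other 6 at 7.41 to 7.45. None of the 4 rests on a gene that passed a test between genotypes.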

How the results depend on the processing

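The count of 2 members with an unadjusted p under 0.05 between genotypes was small enough for single choices to move it. It was 4 with no filter on low counts (12.5%, against 5.87% of all genes) and 4 with sex as a covariate (12.5%, against 5.62%). With sex as a covariate these were Ermn, Fa2h, Aspa and Cryab. The count was 1 with log2 total counts as a covariate (3.12%, against 5.08%). Leaving out 1 mouse gave 1 to 7 members, with 7 without mouse 7 or 30, 6 without mouse 10, 5 without mouse 19 or 27, 4 without mouse 12, 3 without mouse 4, 24, 28 or 32, and 1 (Cryab alone) without any of 14 others. In the fits that left out 1 mouse, 4.26% to 5.8% of all genes passed. DESeq2, RLE factors, at least 10 counts in every mouse and the myelin mean as a covariate gave 2. No alternative brought a member past an adjusted p of 0.05 between genotypes. The further lineage list of 48 genes gave 2 with no filter and 3 with sex as a covariate, in place of 1. In these 2 fits 5.87% and 5.62% of all genes passed. The count between sexes was 3 in the main fit (9.38%, against 9.77% of all genes) and 6 with the myelin mean as a covariate (18.8%, against 10.1%). It was 1 to 4 when 1 mouse was left out, with 1 without mouse 9, a WT female. The share of all genes between sexes in the fits that left out 1 mouse is not given here. Of 192 values of single members between genotypes under the 6 alternatives listed first in the methods, the sign changed for 1, Apod, at 0.005 with sex as a covariate in place of -0.002. With the myelin mean as a covariate, which centres these genes by construction, 20 of the 32 fold changes were above 0 in place of 29. Leaving out 1 mouse turned the sign in at least 1 fit for Enpp6 (lowest -0.014), Bcas1 (-0.01), Myrf (-0.011), Mobp (-0.022) and Apod (highest 0.021). The median r within the 3 pan-lineage factors was 0.07, and it was -0.11 in TIMP2 KO mice alone and -0.027 without the 2 outermost mice. Within the 3 genes of lipid and acetate metabolism it was 0.72, and 0.65 by Spearman's rho, 0.64 without the 2 outermost mice and 0.64 in WT mice alone. The causes of these shifts were not tested. Differences under about 0.1 on the log2 scale are near the standard errors of single genes here. No paired analysis was possible because the labels tie no mouse of 1 genotype to a mouse of the other, and the replicate numbers used here only name the mice.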
